A study of Mus musculus with 6 samples.

Results

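The genes described here are 10 imprinted genes that act on fetal growth: Meg3, Rian, Mirg, Peg3, Plagl1, Grb10, Igf2r, Cdkn1c, Ndn and Mest. They were chosen by name, as the rows of the deposited expression table whose Ensembl identifier belongs to these symbols, and all 10 were found among the 52550 genes listed. The libraries were made from RNA of GFP-positive cells that had been sorted out of fetal livers of CD-1 mice of the genotype Sox9-GFP, in which green fluorescent protein reports the transcription factor SOX9, a marker of the bile duct lineage. There were 3 libraries (replicates A, B and C) at each of 2 stages, called E16.5 and E18.5 in the paper and embryonic day 16 and 18 in the sample labels. Each library came from a pool of 15 livers whose hematopoietic cells had first been removed by magnetic sorting. No group carried another treatment or allele. The p-values below measure the spread between these pools.

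An imprinted gene is transcribed mainly from a single parental copy, because methylation of a control region was set in the egg or in the sperm. Many paternally expressed genes favour fetal growth and many maternally expressed genes restrain it, and a network of them is switched down together as organs mature. Meg3, Rian and Mirg are maternally expressed long noncoding RNAs of the Dlk1-Dio3 domain on chromosome 12, which also carry small nucleolar RNAs and microRNAs. Peg3 and Plagl1 are paternally expressed zinc finger proteins, Grb10 and Igf2r damp insulin-like growth factor signalling, Cdkn1c inhibits cyclin-dependent kinases, Ndn restrains proliferation and Mest belongs to a family of hydrolases. The libraries give total RNA per gene and do not separate the parental copies, so imprinting itself was not measured.

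The sequences around 3 starts are shown because Meg3 and Rian fell and Peg3 rose between the stages, and because imprinting marks are placed on CpG dinucleotides. They are RefSeq sequences of the build GRCm38.p6, written 5′ to 3′ on the strand of the gene, with each CpG in capitals. The first covers Meg3 at chr12:109540746-109541045 on the plus strand, the second Rian at chr12:109603695-109603994 on the plus strand, and the third the stretch before the RefSeq start of Peg3, at chr7:6730420-6730577 on the minus strand, that separates it from its divergent neighbour Usp29. The GENCODE start of Peg3 given below lies slightly inside that stretch.
Meg3 promoter: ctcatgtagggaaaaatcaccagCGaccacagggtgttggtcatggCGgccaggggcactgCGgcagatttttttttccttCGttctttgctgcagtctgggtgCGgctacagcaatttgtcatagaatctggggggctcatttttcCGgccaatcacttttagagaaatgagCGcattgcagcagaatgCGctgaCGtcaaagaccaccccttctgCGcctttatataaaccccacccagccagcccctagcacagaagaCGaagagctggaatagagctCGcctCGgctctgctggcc
Rian promoter: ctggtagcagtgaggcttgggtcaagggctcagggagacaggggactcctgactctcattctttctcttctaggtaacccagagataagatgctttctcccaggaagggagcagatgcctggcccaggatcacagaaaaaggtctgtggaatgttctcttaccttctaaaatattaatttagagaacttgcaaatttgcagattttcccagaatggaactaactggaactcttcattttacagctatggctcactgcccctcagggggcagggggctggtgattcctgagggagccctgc
Peg3 upstream stretch: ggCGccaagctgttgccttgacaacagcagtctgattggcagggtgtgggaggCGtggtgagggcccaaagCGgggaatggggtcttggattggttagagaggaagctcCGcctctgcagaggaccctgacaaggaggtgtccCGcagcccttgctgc
The Meg3 window held 13 CpG in 300 bases, more than 62.1% of the 32851 windows of this length taken from 250 bases before to 50 after each RefSeq start, whose median was 7. Rian's window held 0 CpG, as did 5.43% of all windows. The label promoter here means only such a window around an annotated start, and whether transcription begins there was not measured. The whole 300 bases of Peg3 also held 13, of which 5 lie in the stretch printed. The letters TATAAA, searched on both strands, occurred in the Meg3 window and not in the other 2, and 13.6% of all windows hold them.

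MicroRNAs of the Meg3-Mirg stretch are shown next, because the rows of their hairpins fell with the host transcripts (below). They are mature RefSeq sequences on GRCm38.p6 with the seed, bases 2 to 8, in capitals, from the 6 hairpin genes with the most reads among those lower at E18.5 by the test, and from 2 more genes that share a seed with one of these.
mmu-miR-493-5p: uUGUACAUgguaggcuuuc
mmu-miR-493-3p: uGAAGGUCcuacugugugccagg
mmu-miR-540-3p: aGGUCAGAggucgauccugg
mmu-miR-665-3p: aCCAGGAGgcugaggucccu
mmu-miR-341-3p: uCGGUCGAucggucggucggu
mmu-miR-3070-3p: uGGUGCUAccgucagggguaga
mmu-miR-3070-2-3p: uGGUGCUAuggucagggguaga
mmu-miR-453: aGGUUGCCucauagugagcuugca
mmu-miR-496a-5p: aGGUUGCCcaugguguguuca
The seed GGUUGCC was shared by miR-453 and miR-496a-5p, and GGUGCUA by miR-3070-3p and miR-3070-2-3p. The 112 mature entries between Meg3 and Mirg had 102 distinct seeds, 9 of which were shared by microRNAs of different names, so the cluster as a whole is made of many different seeds.

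Values are TPM, a level per gene length and library total, so that levels of different genes can be set side by side. The E16.5 libraries held 23193537 to 26206374 recovered reads, and each E18.5 library held fewer, between 13093937 and 22643868. The cholangiocyte label held in part: Sox9 lay between 69.5 and 186 TPM at E16.5 and between 353 and 466 TPM at E18.5, but the hepatocyte product Alb was at 30024 TPM or more in every library. The summed TPM of 9 hepatoblast markers was 161163 to 202791 in the E16.5 libraries and 36868 to 86892 in the later ones, and that of 10 cholangiocyte markers 948 to 2876 and 8695 to 14716. The 6 megakaryocyte markers summed to between 2626 and 7842 TPM at E16.5 and between 66.0 and 612 TPM at E18.5. In these bulk libraries, fewer cells of a type and less RNA per cell cannot be told apart.

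Peg3 was the most abundant of the 10 genes at both stages and rose about 2-fold in the deposited TPM, while the noncoding RNAs of chromosome 12 fell to 0.600 (Meg3), 0.430 (Rian) and 0.349 (Mirg) of their earlier mean TPM. The comparison used limma on log2(TPM + 1) for the 22452 genes whose mean reached 1 TPM, and p-values were adjusted by Benjamini-Hochberg over all of them. All 10 genes passed that filter and 5 had an adjusted p under 0.05, with Peg3 and Plagl1 higher and Meg3, Rian and Mirg lower at E18.5. Of all genes tested, 31.2% passed, 26.0% as higher and 5.22% as lower. The median log2 fold change was -0.06 over the 10 genes and 0.42 over all genes tested, so the typical gene was itself higher at E18.5 in TPM.

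Median-of-ratios scaling between libraries moved the median over all genes from 0.42 to 0.01, and the median of the 10 genes to -0.53. Under it 5 of the 10 passed as well, 0 higher and 5 lower (Meg3, Rian, Mirg, Igf2r and Cdkn1c), where 16.9% of all genes passed, 6.44% as higher and 10.5% as lower. The falls of the chromosome 12 RNAs therefore passed under both scalings. The rises of Peg3 and Plagl1 passed in TPM as deposited and not after median-of-ratios scaling of TPM. Over all 14 alternative settings Peg3 passed in 12 and Plagl1 in 5.

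**Figure D1:**
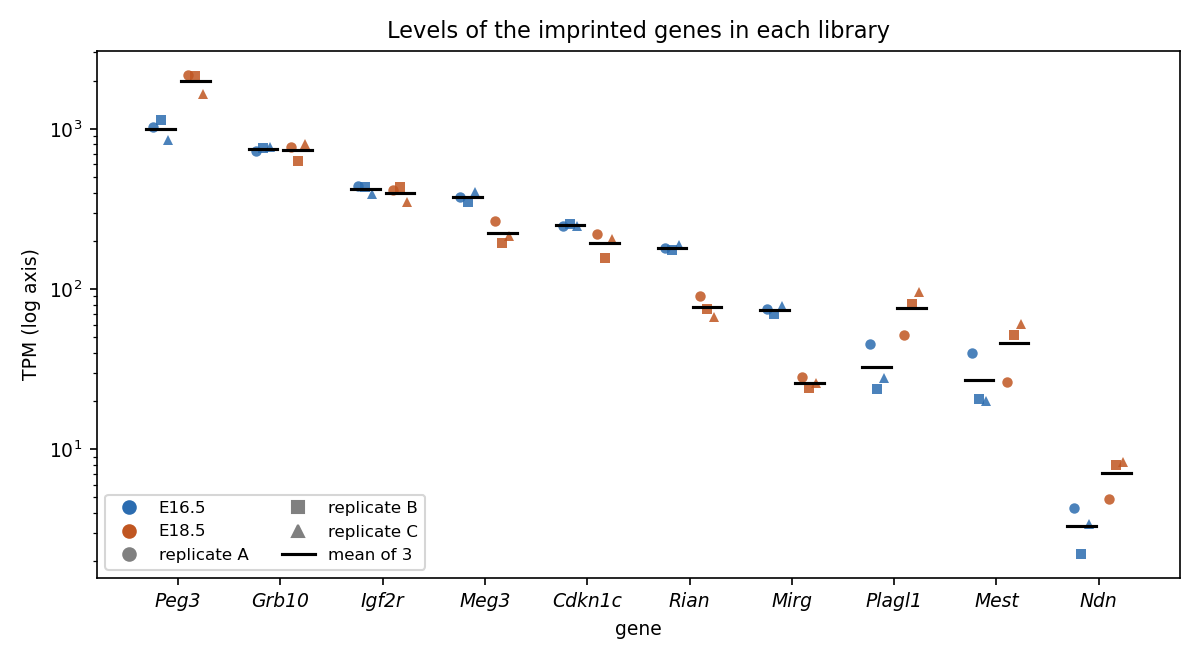
TPM (log axis) of the 10 genes in each of the 6 libraries, with the E16.5 libraries in blue, the E18.5 libraries in orange, a symbol for each replicate letter and a black bar for the mean of 3. Peg3 stands highest in both stages, Meg3, Rian and Mirg have every E18.5 library below every E16.5 library, and Mest overlaps between the stages.

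The order of the levels at E16.5 was Peg3, Grb10, Igf2r, Meg3, Cdkn1c, Rian, Mirg, Plagl1, Mest and Ndn, and the libraries overlapped only for the neighbours Igf2r with Meg3 and Plagl1 with Mest. Among the genes tested, Peg3 held rank 66 at E16.5 and 26 at E18.5, Grb10 rank 86 and 89, and Ndn rank 16162 and 14318. At E18.5 Plagl1 and Mest stood above Mirg by their means, and Rian, Plagl1 and Mest each overlapped the next gene in that order, as Meg3 did Cdkn1c. For 7 of the 10 genes the E18.5 values lay wholly above or below the E16.5 values, which was so for 53.3% of all genes tested. Of these, Meg3, Rian, Mirg and Cdkn1c were lower at E18.5, a direction that 8.30% of all genes showed, and Peg3, Plagl1 and Ndn were higher, as 45.0% of all genes were. An exact permutation test of a single gene cannot go below p = 0.1 with 3 libraries against 3, and each of these 7 genes reached that value. After median-of-ratios scaling the count was again 7 of 10, where all genes gave 41.9%, but it held 6 genes lower at E18.5, against 22.2% of all genes, and Peg3 alone higher, against 19.7%.

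**Figure D2:**
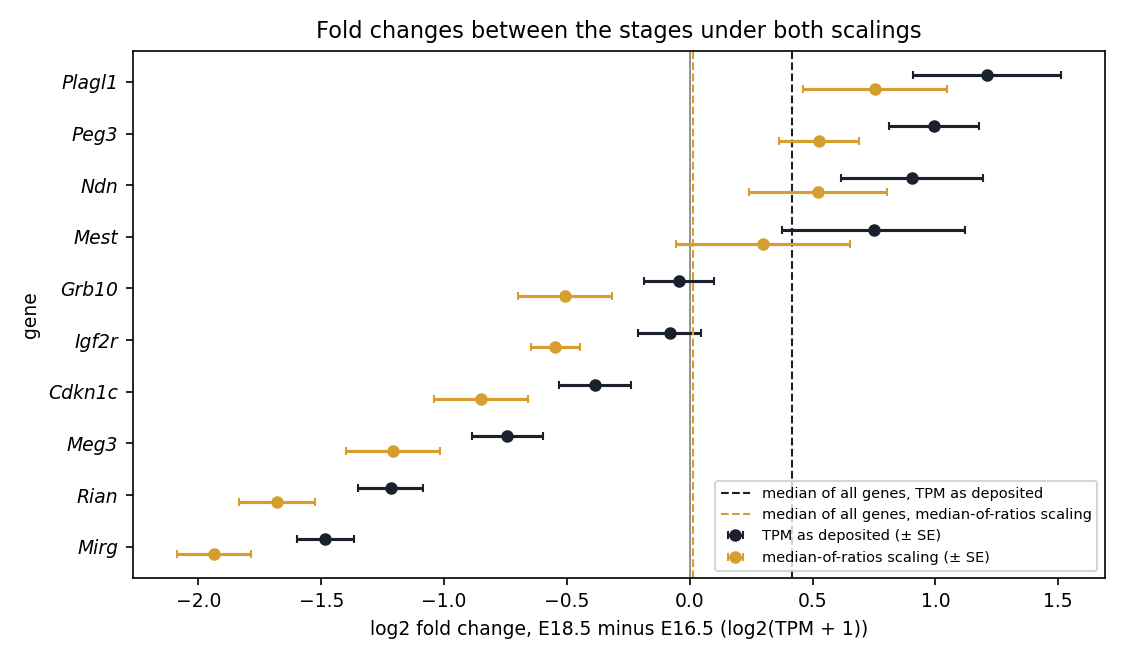
Log2 fold change, E18.5 minus E16.5, of the 10 genes with its standard error, in black for TPM as deposited and in yellow after median-of-ratios scaling, with dashed lines at the median of all genes tested (0.42 and 0.01). All 10 estimates shift to the left with the rescaling, and Mirg, Rian and Meg3 stay lowest under both.

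Of the 10 genes, the noncoding RNAs of the Dlk1-Dio3 domain had the lowest log2 fold changes. Meg3, a growth-suppressing RNA, lies at chr12:109541001-109571726 (GRCm38, plus strand) and was read, in the order A, B, C, at 374, 349 and 401 TPM in the E16.5 libraries and at 266, 194 and 216 TPM in the later ones. Every later library was below every earlier one, and the log2 fold change was -0.74 (SE 0.14, limma adjusted p = 0.0151). Rian, the host of a tandem array of C/D box small nucleolar RNAs, lies at chr12:109603940-109661716 on the same strand and went from 179, 175 and 188 TPM to 90.3, 75.2 and 67.3 TPM. The E16.5 libraries differed by no more than 1.07-fold, and the log2 fold change was -1.22 (SE 0.13, limma adjusted p = 0.00735). Mirg, the host of the distal microRNA cluster, lies at chr12:109729764-109749460 and went from 74.6, 69.7 and 78.8 TPM to 28.1, 24.0 and 25.8 TPM. Its log2 fold change of -1.48 (SE 0.12, limma adjusted p = 0.00424) was the lowest of the 10 genes and lay 1.90 below the median gene. These 3 calls held in all 14 alternative settings, with ranges of -1.21 to -0.64 for Meg3, -1.68 to -1.12 for Rian and -1.97 to -1.43 for Mirg.

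The protein-coding genes of the domain, which are expressed from the paternal copy, fell too. Dlk1, a membrane protein of fetal hepatoblasts related to Notch ligands, starts 88.2 kb before Meg3 and was at 468, 449 and 521 TPM at E16.5 and at 111, 86.1 and 123 TPM at E18.5. No later library came near an earlier one, and the log2 fold change was -2.17 (SE 0.15, limma adjusted p = 0.0040). Rtl1, a retrotransposon-derived gene needed in placenta and muscle, lies on the opposite strand 59.3 kb after the Meg3 start and went from 131, 106 and 126 TPM to 50.5, 35.4 and 46.6 TPM (log2 fold change -1.45, SE 0.16, limma adjusted p = 0.0078). Both rows thus moved in the same direction as the maternally expressed RNAs of the domain. Rtl1 shares 8.12% of its exon length with microRNA genes on the opposite strand. Whether its reads were counted by strand is not given, so its row may hold maternal RNA of that strand. Its fall is therefore not shown to be that of the paternal RNA. The long transcripts Gm26945, Gm37899 and B830012L14Rik, which lie between Rian and Mirg or inside Rian, had log2 fold changes of -1.20, -1.30 and -1.37, all past the threshold. Dio3, at the far end of the domain 738 kb from the Meg3 start, stayed under the filter at 0.253 to 1.01 TPM.

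Rows for the small RNA genes of this stretch fell with their hosts. Of 66 microRNA genes listed from Meg3 to Mirg, 41 passed the filter, all 41 had a negative log2 fold change and 30 passed the test as lower, with a median of -1.53. Of 23 small nucleolar RNA genes, 12 passed the filter, all 12 were negative and 6 passed the test as lower, with a median of -1.26. None of either kind passed as higher. Over all genes tested, 26.0% passed as higher and 5.22% as lower. Rows that passed the filter only through high E16.5 values had to differ, so these counts describe the rows tested and not the clusters. Mir453 was read at 476, 386 and 462 TPM at E16.5 and at 128, 134 and 150 TPM at E18.5 (log2 fold change -1.67, limma adjusted p = 0.0042). Mir493 was read at 510, 338 and 444 TPM and then at 174, 153 and 228 TPM (log2 fold change -1.21, limma adjusted p = 0.0120). The libraries of the stages did not overlap for either gene. Mir496a, which shares its seed with miR-453, had 132 reads in all and was listed at 0, 2.48 and 31.2 TPM at E18.5, so its change rests on few reads. A hairpin row can hold reads of the long host transcript, and the mature microRNAs printed above were not measured. Of the rows listed, 21 microRNA and 11 small nucleolar RNA rows were at 0 in all libraries. Among them were Mir134 and Mir485, whose hairpins share bases with exons of Mirg. A row at 0 therefore does not show that no read fell there. The microRNA rows of the stretch together held 2430 to 3466 reads in the earlier libraries and 545 to 1065 in the later ones.

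**Figure D3:**
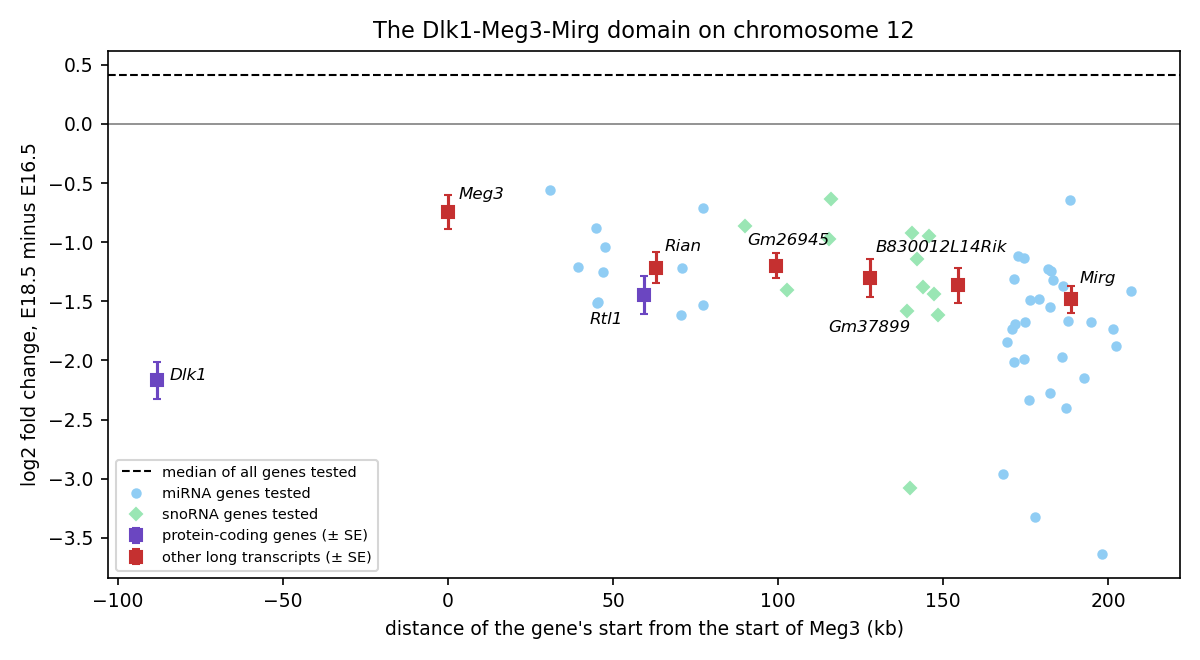
Log2 fold change, E18.5 minus E16.5, against the distance of each gene's start from the start of Meg3 in kb, for long genes (squares with standard errors, purple for the protein-coding Dlk1 and Rtl1 and red for the others) and for the tested microRNA genes (light blue circles) and small nucleolar RNA genes (green diamonds). Every gene plotted lies below 0 and below the dashed line at 0.42, the median of all genes tested, with Dlk1 the lowest of the long genes at -2.17 and Meg3 the highest at -0.74.

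The fall was not equal along the domain, as ratios taken within each library showed. The pairs were picked with the values in view, and a ratio within a library does not depend on the scaling between libraries. Rian over Meg3 was 0.480, 0.501 and 0.468 at E16.5 and 0.340, 0.388 and 0.312 at E18.5. Mirg over Meg3 was 0.200, 0.200 and 0.196 and then 0.106, 0.124 and 0.119, a log2 difference of -0.77. Dlk1 over Meg3 went from 1.25, 1.29 and 1.30 to 0.420, 0.444 and 0.569, so Dlk1 was above Meg3 in every E16.5 library and below it in every E18.5 library. Rtl1 over Meg3 had means of 0.323 and 0.196, and Mirg over Rian of 0.411 and 0.338. The stages did not overlap for any of these 5 ratios (exact permutation test, p = 0.1, the smallest that 3 against 3 allow). Hepatoblast markers moved in the same direction as the domain, with 6 of 9 past the test as lower and a median log2 fold change of -1.33, and so did all 6 megakaryocyte markers, with a median of -4.39. Their part in the fall of Meg3, Rian, Mirg, Dlk1 and Rtl1 was not tested.

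**Figure D4:**
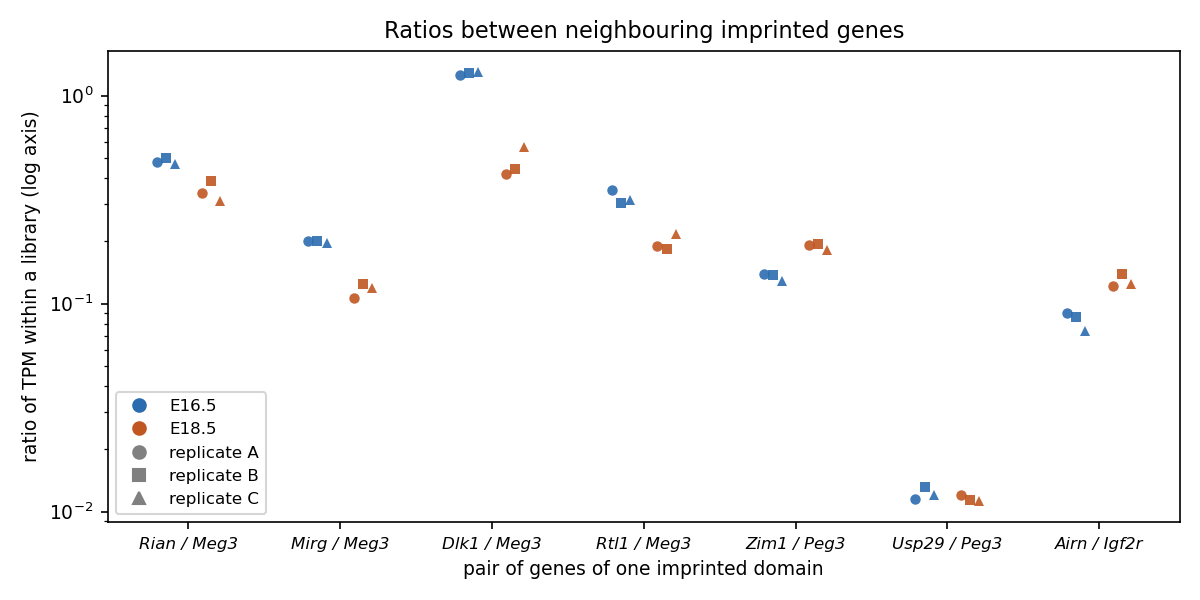
Ratio of TPM within a library (log axis) for 7 pairs of genes that share an imprinted domain, with E16.5 libraries in blue, E18.5 libraries in orange and a symbol for each replicate letter. The 4 ratios to Meg3 are lower in every E18.5 library, those of Zim1 to Peg3 and Airn to Igf2r are higher in every E18.5 library, and Usp29 to Peg3 overlaps between the stages.

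Peg3 encodes a large zinc finger protein and lies at chr7:6703892-6730431 on the minus strand. It was at 1026, 1130 and 852 TPM at E16.5 and at 2179, 2150 and 1662 TPM at E18.5. The lowest E18.5 library was above the highest E16.5 library, and the log2 fold change was 0.99 (SE 0.18, limma adjusted p = 0.0139), or 0.58 above the median gene. After median-of-ratios scaling it was 0.53 with a limma adjusted p of 0.0712, and without replicate A of E18.5 it was 0.92 with one of 0.0539. Usp29, a ubiquitin-specific protease gene that starts close to Peg3 on the opposite strand and is paternally expressed as well, went from 11.8, 14.8 and 10.3 TPM to 26.2, 24.5 and 18.7 TPM (log2 fold change 0.86, SE 0.19, limma adjusted p = 0.0209). It passed in 8 of 14 alternatives and was 0.42 with a limma adjusted p of 0.121 after median-of-ratios scaling. The ratio of Usp29 to Peg3 was 0.0122 ± 0.000809 at E16.5 and 0.0116 ± 0.000411 at E18.5 (SD, n = 3 libraries) and overlapped between the stages (exact permutation test, p = 0.2). Zim1, the maternally expressed zinc finger gene next to Peg3, went from 143, 156 and 109 TPM to 417, 414 and 302 TPM (log2 fold change 1.47, SE 0.19, limma adjusted p = 0.0085), and it passed in all 14 alternatives. Its ratio to Peg3 was higher in every E18.5 library, with means of 0.135 and 0.189. In all 3 genes replicate C was the lowest library of each stage. The share of all genes with that profile was not counted. The median-of-ratios size factor, which follows the typical gene of a library, was also lowest in replicate C of each stage. In the order A, B, C it was 0.924, 0.882 and 0.756 at E16.5 and 1.14, 1.28 and 1.11 at E18.5. Its part in the profile was not tested. Replicate C was also the lowest of its stage in the summed cholangiocyte markers, but Spp1, at 10012, 12121 and 6629 TPM, made up most of the E18.5 sums. At E18.5 Krt19 and Muc1 were highest in replicate C and Cldn4 was lowest in replicate B. The other cholangiocyte markers were lowest in replicate C at both stages. Of the cholangiocyte markers, 9 of 10 passed as higher with a median log2 fold change of 1.61. Whether these markers have a part in the rise was not tested.

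Plagl1, a zinc finger protein that can arrest the cell cycle and that regulates other imprinted genes, lies at chr10:13060504-13131694 on the plus strand. It was at 45.6, 23.8 and 28.0 TPM at E16.5 and at 51.5, 80.5 and 95.7 TPM at E18.5. The stages did not overlap, but the highest E16.5 library and the lowest E18.5 library, both replicate A, stood close to each other. The log2 fold change was 1.21 (SE 0.30, limma adjusted p = 0.0263), and it passed in 5 of the 14 alternatives. With median-of-ratios scaling it was 0.75 with a limma adjusted p of 0.128, and the stages then overlapped.

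Ndn, a MAGE family protein of differentiated cells, is a single-exon gene at chr7:62346569-62350262 and was the least abundant of the 10, with 64 to 151 reads per library. It was at 4.29, 2.22 and 3.43 TPM at E16.5 and at 4.91, 8.0 and 8.33 TPM at E18.5, and its log2 fold change of 0.91 (SE 0.29, limma adjusted p = 0.0514) missed the threshold. The neighbouring paternally expressed genes of its domain were low too, with Magel2 at 0.211 TPM or less in every library. Mest, at chr6:30723547-30748465 on the plus strand, was at 40.1, 20.5 and 20.0 TPM and then at 26.5, 51.5 and 60.3 TPM. Its stages overlapped and its log2 fold change of 0.75 (SE 0.37, limma adjusted p = 0.154) did not pass in any of the 14 alternatives. Mest shares 23.1% of its exon length with Copg2 on the opposite strand, and whether reads were counted by strand is not given in the sources used here.

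Plagl1, Ndn and Mest shared a profile over the 6 libraries that the other 7 genes lacked by inspection: replicate A was the highest of the E16.5 libraries and the lowest of the E18.5 libraries. The same was true of 9 of 10 mesenchymal, 5 of 6 mesothelial and 7 of 8 endothelial markers, the exceptions being Vim, Gpm6a and Pecam1, and of 14.1% of all genes tested. Col3a1, a fibrillar collagen, was at 55.1, 24.3 and 41.5 TPM at E16.5 and at 53.4, 96.4 and 167 TPM at E18.5. Dcn, a small matrix proteoglycan, was at 16.7, 6.35 and 8.72 TPM and then at 26.3, 39.0 and 49.3 TPM. The endothelial cadherin Cdh5 was at 23.2, 14.1 and 11.2 TPM and then at 15.5, 34.9 and 44.1 TPM. The 10 mesenchymal markers summed to 443, 331 and 283 TPM in the earlier libraries and 575, 834 and 1031 TPM in the later ones, with 3 of 10 past the test as higher, and the 8 endothelial markers to 171, 111 and 106 TPM and to 116, 210 and 213 TPM, with 2 of 8. The 6 mesothelial markers summed to 12.6, 6.53 and 4.56 TPM and to 47.2, 98.4 and 92.4 TPM, and all 6 passed as higher. None of these markers was at 0 in all libraries, and their part in the levels of Plagl1, Ndn and Mest was not tested. Ratios of these genes to Col3a1, 1 of the 10 mesenchymal markers, overlapped between the stages. Ratios to the other mesenchymal markers were not computed, so the overlap is shown for Col3a1 alone. Log2 fold changes of the 10 markers ran from 0.15 to 1.81 (Dcn), against 1.21 for Plagl1, 0.91 for Ndn and 0.75 for Mest. The mean of Plagl1 over Col3a1 was 0.827 ± 0.152 at E16.5 and 0.791 ± 0.199 at E18.5 (SD, n = 3 libraries), with an exact permutation p of 0.7. For Ndn the means were 0.0839 and 0.0749 (exact permutation p of 0.9), and for Mest 0.685 and 0.464 (exact permutation p of 0.3). Mest over Plagl1 was lower in every E18.5 library, with means of 0.819 and 0.594 (exact permutation p of 0.1), while Ndn over Plagl1 overlapped.

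**Figure D5:**
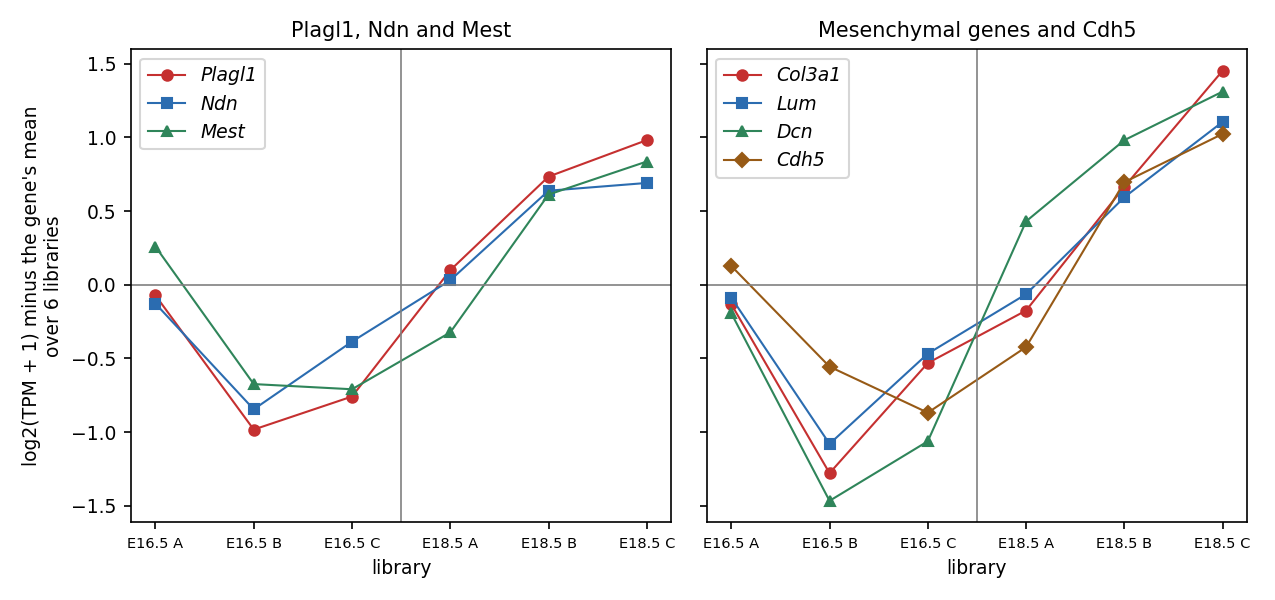
Log2(TPM + 1) minus the gene's mean over the 6 libraries, for Plagl1, Ndn and Mest (left) and for the mesenchymal genes Col3a1, Lum and Dcn and the endothelial gene Cdh5 (right), with the libraries of E16.5 left of the vertical line. In both panels replicate A is the highest E16.5 library and the lowest E18.5 library, and the lines join libraries only to make a gene easier to follow.

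The genes with the most similar profiles were sought among protein-coding and lincRNA genes whose mean reached 5 TPM, by the root mean square difference of centred log2(TPM + 1) values over the 6 libraries. The closest to Plagl1 were Lbh, Axl and Chst15, at 0.0818 to 0.0950. Those of Peg3 were Nav2, Exd2 and Adamts6, at 0.0353 to 0.0444. Mirg was closest to B830012L14Rik, P4hb and Rtl1, Rian to Slc36a1, Dnajc12 and Tent5a, and Meg3 to C2, Sema4a and Pgk1. So 2 of the 3 closest to Mirg lie in its own domain. The genes that missed the threshold were looked at after their values were seen. Ndn was closest to Steap4, Wnt2b and Grk5, and Mest to Adgrf5, Mmrn2 and Fgd5. Grb10 was closest to Hadhb, Etfdh and Slc25a13, Igf2r to Hspe1, Nudcd2 and Cct8, and Cdkn1c to Pde4c, Elovl2 and H6pd.

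Grb10 and Igf2r, which limit growth factor signalling, were abundant and overlapped between the stages in TPM. Grb10, an adaptor that binds the insulin and IGF1 receptors, lies at chr11:11930508-12038683 on the minus strand and was at 727, 760 and 776 TPM at E16.5 and at 773, 626 and 810 TPM at E18.5. The stages overlapped, and the log2 fold change was -0.04 (SE 0.14, limma adjusted p = 0.825). With median-of-ratios scaling every E18.5 library was lower and it was -0.51 with a limma adjusted p of 0.119. Igf2r, the receptor that carries IGF2 to the lysosome, lies at chr17:12682406-12769664 on the minus strand and was at 439, 433 and 393 TPM and then at 414, 434 and 350 TPM. Its log2 fold change was -0.08 (SE 0.13, limma adjusted p = 0.637), while with median-of-ratios scaling it was -0.55 with a limma adjusted p of 0.0197. The signs of both small TPM changes turned in 1 or 2 alternatives. A noncoding RNA read antisense from within Igf2r, Airn, was at 39.4, 37.5 and 28.9 TPM and then at 50.1, 60.1 and 43.5 TPM (log2 fold change 0.53, limma adjusted p = 0.0555). Its ratio to Igf2r rose from a mean of 0.0833 to 0.128 without overlap (exact permutation test, p = 0.1). Airn shares no exon bases with Igf2r, but it starts within that gene. Whether reads were counted by strand is not given, so the Airn row may hold unspliced RNA of Igf2r. Of the genes beside these members, Cobl, an actin nucleator next to Grb10, had a log2 fold change of 1.26 (limma adjusted p = 0.0106) and passed in all 14 alternatives, and the organic cation transporter gene Slc22a2, next to Igf2r, had one of 1.44 (limma adjusted p = 0.0303) at a level of 8.05 TPM or less and passed in 6 of 12 alternatives.

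Cdkn1c, the cyclin-dependent kinase inhibitor p57, lies at chr7:143458339-143461050 on the minus strand. It was at 249, 254 and 249 TPM at E16.5 and at 221, 155 and 205 TPM at E18.5. All 3 later libraries were lower and the E16.5 libraries differed by no more than 1.02-fold, but the log2 fold change of -0.39 (SE 0.15) had a limma adjusted p of 0.0837. With median-of-ratios scaling it was -0.85 and the limma adjusted p was 0.0336. Of its exon length, 30.7% is shared with Gm44732 on the opposite strand. In the same domain Phlda2, a maternally expressed gene that limits placental growth, went from 9.57, 8.23 and 13.2 TPM to 4.43, 4.36 and 6.15 TPM (log2 fold change -0.91, SE 0.24, limma adjusted p = 0.0288). Kcnq1ot1, the long noncoding RNA that silences this domain on the paternal copy, was at 32.7 to 44.0 TPM and then at 45.8 to 51.1 TPM (log2 fold change 0.38, limma adjusted p = 0.0761). Cd81, a tetraspanin gene at the edge of the domain, had a log2 fold change of 0.64 (limma adjusted p = 0.0121), which was 0.17 with a limma adjusted p of 0.170 after median-of-ratios scaling.

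Around the 10 genes, 31 neighbours were listed, 28 were in the table and 24 passed the filter, of which 7 were higher and 3 lower by the test, with a median log2 fold change of 0.33. With median-of-ratios scaling 2 were higher and 4 lower, with a median of -0.05. In TPM as deposited the higher ones included Zim1, Usp29, Phactr2, Cobl, Slc22a2 and Cd81, and the lower ones were Dlk1, Rtl1 and Phlda2. Among other paternally expressed genes, 22 were tested, and 4 passed as higher and 4 as lower with a median of 0.27. Among other genes listed as maternally expressed, 16 were tested, and 7 passed as higher and 1 as lower with a median of 0.40. Whether the genes of either list were imprinted in these cells was not measured. With median-of-ratios scaling the counts became 1 higher and 6 lower for the paternal list, and 3 higher and 2 lower for the maternal list. These lists share 20 genes with the neighbours, 16 of them tested, so the 3 sets of counts are not independent. Over all genes tested, 26.0% passed as higher and 5.22% as lower in TPM as deposited. With median-of-ratios scaling these shares were 6.44% and 10.5%.

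Igf2, the main fetal growth factor of the network and the ligand that Igf2r removes, was at 1970, 1841 and 2198 TPM and then at 1596, 1044 and 1740 TPM (log2 fold change -0.49, SE 0.22, limma adjusted p = 0.131). H19, the noncoding RNA next to it, lay between 7518 and 10481 TPM over the 6 libraries, above every one of the 10 genes. Neither passed the test. Peg10, a retrotransposon-derived gene, went from 80.4, 82.0 and 88.5 TPM to 19.5, 20.5 and 22.8 TPM (log2 fold change -1.95, SE 0.11, limma adjusted p = 0.00315) and passed in all 14 alternatives, as Dlk1 and Rtl1 did. Rasgrf1, an exchange factor for Ras, rose by 1.30 on the log2 scale at 6.40 TPM or less but passed in 6 of 13 alternatives, and Mcts2, a retrocopy whose reads may be shared with Mcts1, by 0.997. The maternal list was led in level by H19, Zim1, Cd81 and Ppp1r9a, and its highest fold change was that of the mesenchymal marker Dcn at 1.81 (limma adjusted p = 0.0157). Slc38a4, an amino acid transporter and one of the 4 highest paternal genes, was at 510 to 649 TPM and then at 679 to 871 TPM with a limma adjusted p of 0.0640.

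The signalling steps on which the 10 genes act were described by lists of the same kind. Of 16 insulin-like growth factor and insulin genes tested, 8 passed as higher and 0 as lower with a median log2 fold change of 0.31, and with median-of-ratios scaling 3 passed as higher and 6 as lower. The shares over all genes were 26.0% higher and 5.22% lower, and 6.44% and 10.5% with that scaling. Igf1r, the receptor that Grb10 binds, went from 87.4, 89.8 and 56.6 TPM to 187, 209 and 165 TPM (log2 fold change 1.28, SE 0.20, limma adjusted p = 0.0106). Its ligand Igf1 rose by 1.93 on the log2 scale at a level of 19.2 TPM or less (limma adjusted p = 0.0105), and both passed in all 14 alternatives. The insulin receptor Insr was at 104 to 115 TPM and then at 107 to 122 TPM. Gnptab, which makes the mannose 6-phosphate tag that Igf2r binds, had a log2 fold change of 0.83 (limma adjusted p = 0.0378), which was 0.39 with a limma adjusted p of 0.163 after median-of-ratios scaling and passed in 3 of 14 alternatives.

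Of 12 genes of the cyclin-dependent kinase step, 3 passed as higher and 2 as lower, with a median of 0.43, where 26.0% of all genes passed as higher and 5.22% as lower. Cdkn1a, a relative of Cdkn1c in function, went from 25.0, 24.0 and 17.9 TPM to 63.1, 51.4 and 70.0 TPM (log2 fold change 1.43, SE 0.18, limma adjusted p = 0.00842). Ccnd2, a D-type cyclin, had a log2 fold change of 1.67 (limma adjusted p = 0.0112), Ccne1 one of -0.996 (limma adjusted p = 0.0112) and the pocket protein gene Rb1 one of -1.43 (limma adjusted p = 0.0238). Cdk6 had one of 0.62 (limma adjusted p = 0.0433), which was 0.16 with a limma adjusted p of 0.445 after median-of-ratios scaling and passed in 4 of 14 alternatives. Of 6 proliferation markers, 0 passed in either direction by limma on TPM, and 5 passed as lower with median-of-ratios scaling. Of 11 genes that keep imprints through cell division, 3 passed as higher (Atrx, Smchd1 and Zfp445) and 0 as lower, with a median of 0.43, close to that of all genes. With median-of-ratios scaling only Atrx passed, with Smchd1 at 0.06 and Zfp445 at -0.02. Trim28, the corepressor that zinc finger proteins recruit to imprinted control regions, was the highest of them, at 247 to 367 TPM and then at 353 to 470 TPM.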

How the data were processed

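The authors sequenced stranded total RNA libraries, checked the reads with FastQC 0.11.7, trimmed them, aligned them to GRCm38 with HISAT2 2.1.0, counted reads in genes with HTSeq and turned these counts into TPM. The deposited TPM values of 52550 genes in 6 libraries sum to 1000000 in each and all columns were used. Whether counting used strand is not given in the sources used here. On the minus strand of the Meg3-Mirg stretch, Gm25750 and Gm25252 held 273 and 68 reads. Their log2 fold changes were -1.73 and -1.25, in the direction of the plus-strand hosts. The plus-strand Mir380 and Mir376a, which lie inside them, were at 0, as were other minus-strand rows such as Mir3071. A row may therefore hold reads of the opposite strand. Gene names, exons and places came from GENCODE vM21, which holds 52403 of the identifiers without their version. Multiplying TPM by exon length gave whole reads within 0.01 for 100% of nonzero values with the same version, and reads were recovered for 49583 genes. These served for depth and for an alternative. Igf2r has another version there, so its reads were not recovered and it is missing from that alternative.

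Log2(TPM + 1) was compared between the stages with limma 3.58.1 in R 4.3.3 (trend, Benjamini-Hochberg over the 22452 genes whose mean reached 1 TPM), and a fold change on this scale understates that of low genes. A threshold of 0.05 on the adjusted p was used. Ratios and exact two-sided permutation tests were computed in Python 3.11.15 with SciPy 1.17.1. The steps were tested on simulated data. The members, lists and tests were chosen with earlier results of these data known. Named genes were the 10 members, their tested neighbours, and in each other list the 4 with the highest mean and the 3 largest changes past the threshold in either direction, and for each member past the threshold the 3 genes most like it. Marker lists of leukocytes, mesothelium, erythroid cells and pancreas were counted too: 1 of 6 leukocyte and 6 of 6 mesothelial markers passed as higher, 2 of 4 pancreatic acinar markers as lower, and 0 of 6 erythroid and 0 of 5 pancreatic endocrine markers in either direction. Results for some genes covered by these rules are not reported here. The alternatives were a pseudocount of 0.1, no filter or one at 5 TPM, quantile normalization or median-of-ratios scaling, no trend, a replicate block, limma voom on recovered reads and leaving out each library in turn.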

Additional observations from a re-analysis of the deposited data

How the results depend on the processing

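Of 22452 genes, 7000 passed as reported, and 4282 passed with no filter on low values (of 43310 tested), 3795 with median-of-ratios scaling, 3796 with quantile normalization and 4173 with limma voom on recovered reads. The share of these calls that was higher at E18.5 was 83.3% as reported, 38.1% with median-of-ratios scaling, 50.5% with quantile normalization and 42.9% with voom. Leaving out 1 library gave 1472 (without replicate A of E18.5) to 5686 calls. The same letters in both stages did not deviate together (correlations of -0.042, 0.081 and 0.14), and with the letter as a replicate block 7314 genes and 4 of the 10 members passed, Plagl1 then having a limma adjusted p of 0.0573. Of the members, 4 or 5 passed in every alternative. Leaving out 1 library gave log2 fold changes of -0.12 to 0.069 for Grb10, -0.14 to 0.010 for Igf2r and -0.0080 to 0.54 for Mkrn3. Meg3, Rian and Mirg passed in all 14, Peg3 in 12, Plagl1 in 5, Cdkn1c in 2 (median-of-ratios scaling, and voom with -0.85 and an adjusted p of 0.0158), Igf2r in 1 of 13 and Grb10, Ndn and Mest in 0. Plagl1 was lost with no filter (adjusted p = 0.0501), both scalings, the block, voom (0.104) and without any of replicates B and C of either stage. Among the members, their neighbours and the genes named by size of change or imprinted level, the sign turned, always short of the threshold, for these log2 fold changes: with median-of-ratios scaling Cep41 -0.26, Copg2 -0.16, Kcnq1ot1 -0.078, Mkrn3 -0.013, Nap1l4 -0.26, Slc38a4 -0.025, Snrpn -0.0092, Tssc4 -0.17, Ube3a -0.17 and Zfp445 -0.018, with quantile normalization Grb10 0.028, H19 0.49, Cep41 -0.30, Copg2 -0.030, Mkrn3 -0.10, Nap1l4 -0.051, Snrpn -0.040, Tssc4 -0.11 and Ube3a -0.075, with voom Cep41 -0.28, Copg2 -0.15, Nap1l4 -0.26, Tssc4 -0.16, Ube3a -0.16 and Zfp445 -0.0090, without replicate B of E18.5 Grb10 0.069, H19 0.13 and Mkrn3 -0.0080, without replicate C of E18.5 Igf2r 0.010, and without replicate C of E16.5 H19 0.026. Of the other listed genes, median-of-ratios scaling turned, among others, Insr to -0.41 and Trim28 to -0.07, and took M6pr (-0.42), Mtor (-0.43) and Akt2 (-0.43) from above 0 to lower at E18.5 past the threshold. The cause of these changes was not tested. Depth limits Ndn, Rasgrf1, Slc22a2 and the small RNA rows, which rest on few reads or low TPM.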
